A study of Caenorhabditis elegans with 4 samples.

Results

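The binding sites of NHR-11 described here are those on the 2 arms of Caenorhabditis elegans chromosome V. A site was taken as a member when its midpoint lay below 5.897 Mb (left arm) or above 16.55 Mb (right arm) in genome build WS220. In the series-level list 351 of 6799 sites (5.16%) met this rule, 236 on the left arm and 115 on the right arm. The list of ChIP replicate 1 had 125 member sites of 2612 (90 and 35), and the list of replicate 2 had 149 of 2834 (103 and 46). The arms made up 49.0% of the span of V, and the centre between them held 621 series-level sites.

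NHR-11 belongs to the nuclear hormone receptors, transcription factors with a zinc finger domain that binds DNA and a domain that can bind small lipophilic ligands. This family is greatly expanded in C. elegans. The autosomes of this nematode have a gene-dense centre and 2 arms with more recombination and more repeats, and with more of the silencing histone mark H3K9 methylation. The arms of V are known for large clusters of chemoreceptor genes and of nuclear receptor genes. Gene positions in WS220 were not used here, so the genes, exons or introns at the sites below were not analysed.

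The series mapped NHR-11 by chromatin immunoprecipitation and sequencing (ChIP-seq) in hermaphrodites at L4, the last larval stage, grown at 20 °C. All samples came from strain OP305, an unc-119(ed3) mutant rescued by the bombarded transgene wgIs305, which carries nhr-11 fused to TY1, EGFP and FLAG together with unc-119. The strain was outcrossed 3 times, and all samples were treated with 2% formaldehyde. Tagged NHR-11 was collected with an anti-GFP antibody in ChIP replicates 1 and 2, and 2 input samples hold total DNA of the same strain. The input samples enter no comparison below. The transgene adds copies of the fusion gene, and whole animals were used, so strong binding in few cells and weak binding in many cells cannot be told apart. An untagged strain was not analysed here. The labels do not say whether the replicates were separate cultures, so their spread may be technical.

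Every deposited site comes with its position and a significance value, which was put on a −log10 scale and serves to rank sites within a list. The files hold no reads, so the depth behind a site is unknown. Intervals below are exact 95% intervals that cover the counting of sites only. A series-level site was counted as found in a replicate when the 2 overlapped by at least 1 bp.

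NHR-11 sites were sparser on both arms than in the centre of V, and the right arm was the sparser of the 2 in all 3 lists. The left arm held 40.0 series-level sites per Mb (interval 35.1 to 45.5), 15.3 in replicate 1 (12.3 to 18.8) and 17.5 in replicate 2 (14.3 to 21.2). The right arm held 26.4 per Mb (21.8 to 31.7), 8.05 (5.61 to 11.2) and 10.6 (7.74 to 14.1). The centre held 58.3, 23.8 and 27.6 per Mb. Within each list, the intervals of the 3 parts of V did not overlap, though these intervals treat sites as independent. Sites covered 1.83% of the left arm, 1.15% of the right arm and 2.84% of the centre in the series-level list.

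The density of the left arm was 0.687 times that of the centre in the series-level list (0.588 to 0.799, exact conditional binomial test, two-sided, adjusted p = 1.00e-06 over 18 tests by Benjamini-Hochberg). The ratio was 0.640 in replicate 1 and 0.633 in replicate 2 (exact test, adjusted p = 0.000271 and 6.23e-05). For the right arm the ratio to the centre was 0.454 (0.368 to 0.554, exact test, adjusted p = 2.74e-16), and it was lower still in the replicate lists, at 0.338 and 0.383 (exact test, adjusted p = 7.14e-11 and 8.68e-11). The right arm held 0.661 times the density of the left arm (0.524 to 0.829, exact test, adjusted p = 0.000298), with 0.527 and 0.606 in the replicates (exact test, adjusted p = 0.00126 and 0.00495). All these differences passed in each replicate list alone. They count sites as units, and neighbouring sites depend on each other. In a quasi-Poisson fit over 100-kb windows, the series-level adjusted p was 0.00193 for the left arm and 4.24e-06 for the right arm against the centre. For the right arm against the left, the same fit gave an adjusted p of 0.00777, with 0.0149 and 0.0245 in the replicates. The fit takes windows as independent, so it does not cover dependence between neighbouring windows.

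To set the arms against other chromosomes, outer parts were cut from each one at the same fraction of its span, 28.2% from the left end and 20.8% from the right end. The right arm of V was the sparsest of the 12 outer parts in all 3 lists. Next came the left outer part of II, with 31.8 series-level sites per Mb (26.7 to 37.6), 11.4 in replicate 1 (8.42 to 15.0) and 13.0 in replicate 2 (9.83 to 16.9). The intervals of these 2 parts overlapped in each list, and their difference was not tested. The left arm of V was the next lowest, at place 3 of 12 in all 3 lists. Its intervals overlapped those of the left outer part of III, which held 40.7, 15.7 and 19.0 sites per Mb, and this order was not tested. Outer parts of I to IV pooled held 60.5, 21.1 and 22.8 sites per Mb, and those of X held 54.0, 22.4 and 26.5.

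Against the right outer parts of I to IV, the right arm of V had 0.457 times the density in the series-level list (0.373 to 0.557, exact test, adjusted p = 2.74e-16), 0.384 in replicate 1 and 0.478 in replicate 2 (exact test, adjusted p = 7.48e-09 and 1.05e-06). This held without I and IV, where the ratios were 0.524, 0.392 and 0.470. The left arm behaved differently. It had 0.641 times the density of the left outer parts of I to IV (0.554 to 0.738, exact test, adjusted p = 3.54e-10), with 0.720 and 0.747 in the replicates (exact test, adjusted p = 0.00495 and 0.00799). A quasi-Poisson fit over 100-kb windows allows for clustering of sites within windows but takes the windows as independent. In this fit the call was lost in replicate 2 (interval of the ratio 0.556 to 1.004) and kept in replicate 1 (0.530 to 0.978). Without I and IV the direction turned, to 1.11, 1.14 and 1.10, and no call was left (exact test, adjusted p = 0.235, 0.390 and 0.466). The lower density of the left arm against other autosomes thus rested on I and IV, whose left outer parts held 73.2 and 97.1 series-level sites per Mb. Both arms together had 0.635 times the density of the outer parts of X (0.551 to 0.730, exact test, adjusted p = 3.39e-10), with 0.545 and 0.548 in the replicates (exact test, adjusted p = 2.08e-07 and 1.87e-08).

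The outer parts of I to IV were also sparser than their own centres, with ratios between 0.383 and 0.871 in the series-level list, and the centre of V was itself sparse. Its 58.3 series-level sites per Mb were the lowest of the 6 centres, as were its 23.8 in replicate 1, while in replicate 2 it stood next to X (27.6 against 27.1). Relative to its own centre, the left arm of V lay close to the left outer part of I, at 0.687 against 0.687 in the series-level list, 0.640 against 0.608 in replicate 1 and 0.633 against 0.594 in replicate 2. The right arm of V, at 0.454, 0.338 and 0.383, stood above the left outer part of II (0.383, 0.310 and 0.321) and below the right outer part of IV (0.486, 0.525 and 0.503). These ratios are given as a description, without a test.

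**Figure D1:**
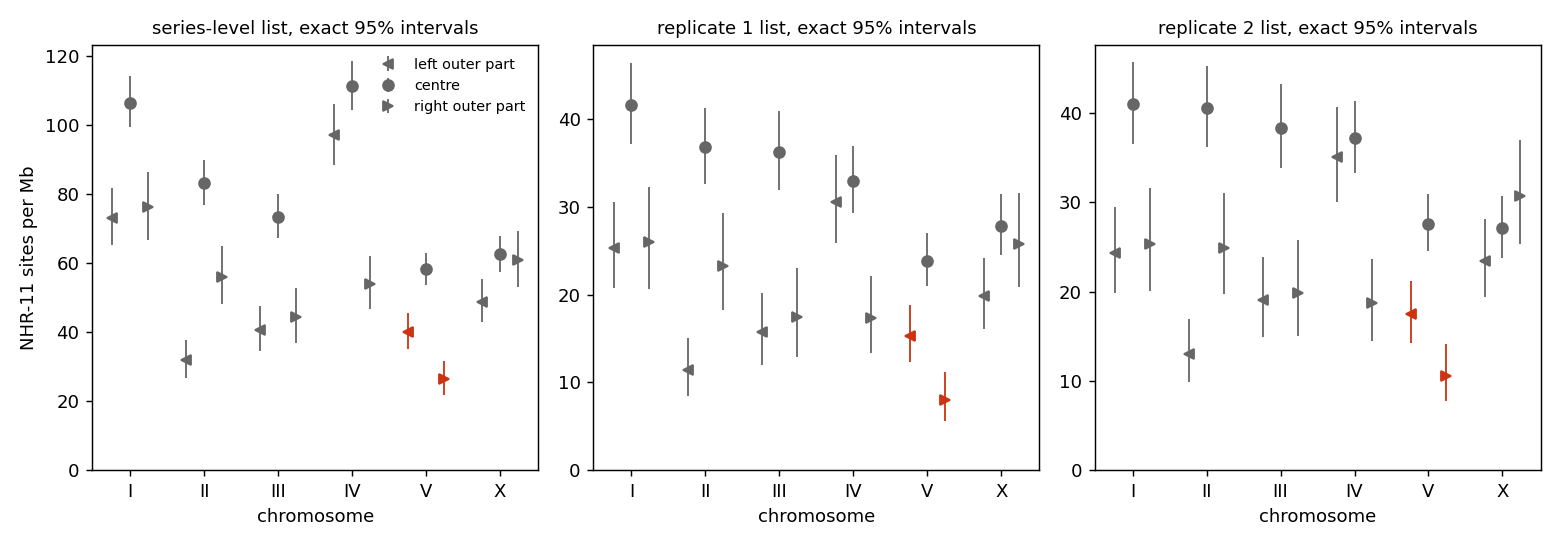
NHR-11 sites per Mb in the left outer part, the centre and the right outer part of each chromosome, 1 panel per list, with exact 95% Poisson intervals as bars and the arms of V in red. The right arm of V is the lowest point of each panel, at 26.4, 8.05 and 10.6 sites per Mb, and its interval overlaps that of the left outer part of II.

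The sites were not spread evenly within the arms, and the 2 arms had different profiles. On the left, the replicate lists were about level across the boundary, and the series-level list was somewhat lower inside the arm, without a test of this step. The 1 Mb of centre beside it held 61 series-level sites (23 of replicate 1, 22 of replicate 2). The first 2.5 Mb of the arm held 51.6, 22.0 and 21.6 per Mb. The sparse stretch lay 2.5 to 4 Mb into the arm, where density was 24.7, 7.33 and 10.0 per Mb. Farther out, towards the end of the chromosome, density was 36.9, 12.7 and 17.9 per Mb. Splitting the arm in its middle gave 48.5 series-level sites per Mb in the inner 2.95 Mb and 31.5 in the outer 2.95 Mb, and the order was the same in replicate 1 (19.7 and 10.9) and replicate 2 (20.0 and 14.9).

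On the right, the sparse stretch straddled the boundary. The last 1 Mb of the centre held 20 series-level sites, 10 in replicate 1 and 12 in replicate 2. The first 2 Mb of the arm held 14.5, 5.0 and 6.0 sites per Mb. From 0.5 to 1.0 Mb into the arm the series-level list had 4 sites, replicate 1 had 0 and replicate 2 had 1. The outer 2.35 Mb of the arm held 36.6, 10.6 and 14.5 sites per Mb. In replicate 1, 8 of the 25 sites of this stretch, some of them pieces of split sites, lay in 1 window of 100 kb near the end of the chromosome. Without that window the values were 34.2, 7.56 and 12.4. The rise in replicate 1, from 5.0 per Mb, was thus smaller without that window. The inner 2.17 Mb of the right arm had fewer sites (17.0 per Mb) than the outer 2.17 Mb (35.9 per Mb), the reverse of the left arm. The replicates had the same order, with 5.52 and 10.6 in replicate 1 and 7.36 and 13.8 in replicate 2, though without the window the outer values were 7.23 and 11.6. These stretches were picked from the profile itself, so their densities are a description.

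**Figure D2:**
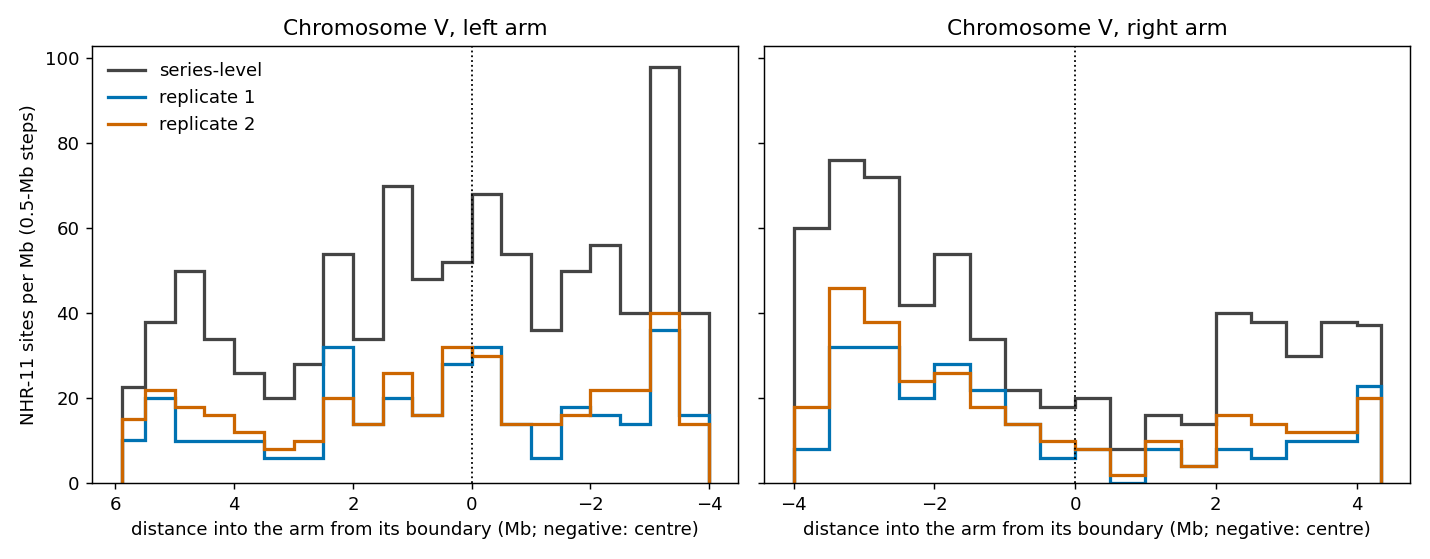
NHR-11 sites per Mb in steps of 0.5 Mb against the distance in Mb from the arm boundary (dotted line, negative towards the centre) for the 3 lists; the outermost step of each arm is shorter. The left arm has a low stretch at 2.5 to 4 Mb. On the right the low stretch begins inside the centre and ends 2 Mb into the arm in the series-level and replicate 2 lists, while replicate 1 stays at 6 to 10 sites per Mb from 2 to 4 Mb and reaches 22.9 in the last step.

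At the boundaries themselves few sites were near enough for the exact cut to matter. Just inside the left arm lay a series-level site at 5858378 to 5858711 (−log10 significance 5.11, found in 1 replicate), 38.5 kb from the boundary, and just outside lay 5917698 to 5918039 (4.79, found in neither). Just outside the right arm lay 16537931 to 16538356 (6.77, found in 1 replicate), 11.9 kb from the boundary. The nearest site inside the right arm was a wide one at 16592022 to 16594878, which is described with the strongest sites.

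Long stretches of both arms held no site at all. In the series-level list the longest on the left arm ran from 2809772 to 3032496 (223 kb) and was also the longest of the whole chromosome. Those at 2278883 to 2486698 (208 kb) and 2486741 to 2600593 (114 kb) followed, with 1 narrow site between them. On the right arm the longest were 17514721 to 17721662 (207 kb), 17159574 to 17339417 (180 kb) and 18167856 to 18346085 (178 kb). All of these exceeded the longest of the centre (153 kb) except the 114-kb stretch. Some of these limits are sites of a few bp, such as the 12-bp site that begins at 17339418. With only sites of at least 100 bp, the longest stretch was 322 kb on the left arm and 355 kb on the right arm. Stretches of at least 100 kb made up 41.4% of the right arm, 16.4% of the left arm and 11.8% of the centre. The median distance between neighbouring sites was 20.7 kb on the right arm, 10.2 kb on the left arm and 8.41 kb in the centre.

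Stretches without any site found in both replicates were longer. On the left arm they were 2135813 to 2600593 (465 kb), 2803662 to 3196982 (393 kb) and 1481258 to 1868560 (387 kb). The 465-kb stretch held no site of replicate 1 and 1 of replicate 2, and the 393-kb stretch held none of either. The series-level list had 4 sites in the 465-kb stretch, the strongest with a −log10 significance of 6.11, and 5 in the 393-kb stretch, the strongest with 4.75. On the right arm the stretches were 16966001 to 17728624 (763 kb), 19893316 to 20398200 (505 kb) and 18079614 to 18581716 (502 kb). The 763-kb stretch held no site of replicate 1, where it was the longest site-free stretch of any chromosome. Replicate 2 had 2 sites within it, the stronger at 3.81, and the series-level list had 8, the strongest at 5.44. On II, 787 kb in a row lacked any site of that kind, so length of this kind was not limited to V.

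**Figure D3:**
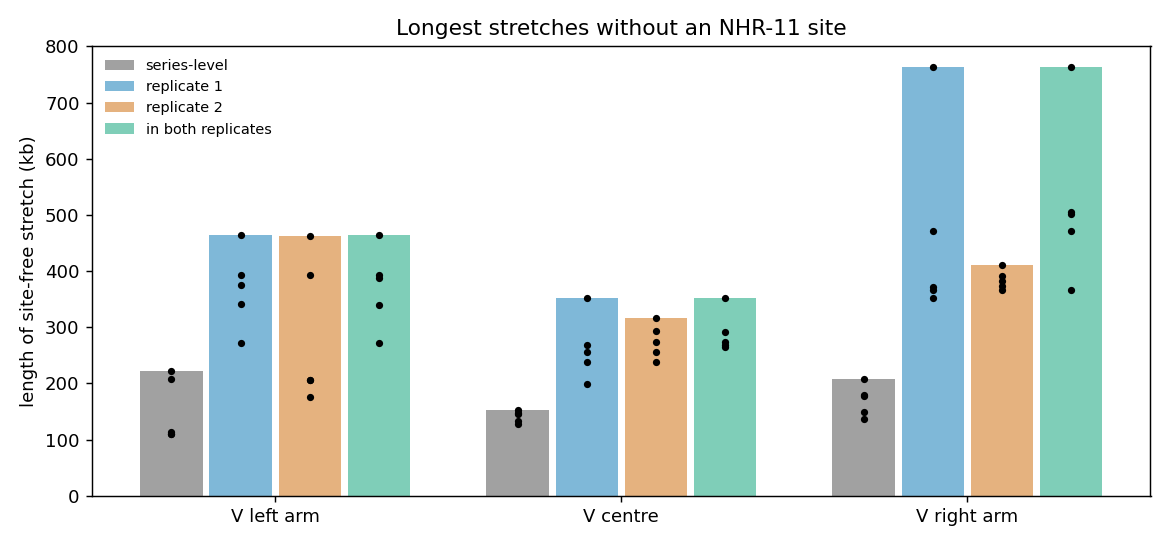
Length in kb of the longest stretches without an NHR-11 site in the left arm, the centre and the right arm of V, by list; bars give the longest stretch and points the 5 longest. The right arm of replicate 1 and of the sites found in both replicates reaches 763 kb, against 351 kb in the centre.

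Of the left-arm sites in the series-level list, 66 of 236 (28.0%, 22.3 to 34.2) were found in both replicates. For the right arm this was 24 of 115 (20.9%, 13.9 to 29.4). The share was 30.9% (27.3 to 34.7) in the centre and 29.3% over all sites of the list. The left arm was near that background, and the interval of the right arm only just included it. That background includes I (27.4%) and IV (23.2%), whose series-level values are on a higher scale. The share was 33.3% on II, 36.7% on III and 32.4% on X. The interval of the right arm ended below these values and below the centre of V, and that of the left arm ended below III alone. These differences were not tested. On the left arm 58 sites were found in 1 replicate and 112 (47.5%) in neither. On the right arm these were 26 and 65 (56.5%, 47.0 to 65.7), against 51.2% in neither over all sites. The share in neither was 44.9% in the centre of V, 45.7% on II, 43.9% on III and 45.9% on X. It was 55.7% on I and 59.7% on IV.

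Seen from the replicates, 66 of 90 left-arm sites of replicate 1 (73.3%, 63.0 to 82.1) and 28 of 35 right-arm sites (80.0%, 63.1 to 91.6) overlapped a replicate 2 site, against 77.5% over all chromosomes. Of the replicate 2 sites, 67 of 103 on the left arm (65.0%, 55.0 to 74.2) and 26 of 46 on the right arm (56.5%, 41.1 to 71.1) overlapped a replicate 1 site, against 71.4% over all chromosomes. The interval of the right arm ended just below that background. In the centre of V the share was 66.3%. All 149 arm sites of replicate 2 were in the series-level list, against 99.1% of its sites over all chromosomes. Of the 125 arm sites of replicate 1, 4 were not in it. The share in it was 96.8% (92.0 to 99.1) on the arms, against 99.4% over all chromosomes, where 15 sites were not. Those 4 had −log10 significance between 3.04 and 3.91, and none was in replicate 2.

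Whether a site was found in both replicates followed its strength. In the strongest 25% of the series-level list, from a −log10 significance of 10.5 upwards, all 42 left-arm sites and all 20 right-arm sites were found in both. The share was 96.9% in the centre of V, 97.2% on II, III and X and 84.0% on I and IV. In the next 25% (5.93 to 10.5) it was 35.9% on the left arm (24.3 to 48.9) and 17.4% on the right arm (4.95 to 38.8), compared with 42.5% on II, III and X and 8.06% on I and IV. In the weakest 25% none of 62 left-arm and none of 42 right-arm sites was found in both. The exact intervals allow shares of up to 5.78% and 8.41%. The strongest 25% of the list held 17.8% of left-arm and 17.4% of right-arm sites, against 20.8% in the centre of V, 24.2% on II, III and X and 27.4% on I and IV. Series-level values of I and IV are on a higher scale relative to the replicates, so this limit does not mean the same on all chromosomes.

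Sites found in both replicates had a median −log10 significance of 12.5 on the left arm (5.88 to 73.9) and 16.2 on the right arm (6.26 to 79.2). Sites in neither ran from 3.01 to 7.25 on the left arm and from 3.05 to 6.32 on the right arm. The classes overlapped little. Their strongest members in neither replicate were 3388329 to 3388946 on the left arm and 17870605 to 17871337 on the right arm, with ranks 2738 and 3186 of 6799. Sites in both were also wider, with medians of 524.5 bp on the left arm and 528.5 bp on the right arm, against 291.5 bp and 266 bp for sites in neither. The same ChIP libraries stand behind the 3 lists, so this relation is a description of the lists.

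**Figure D4:**
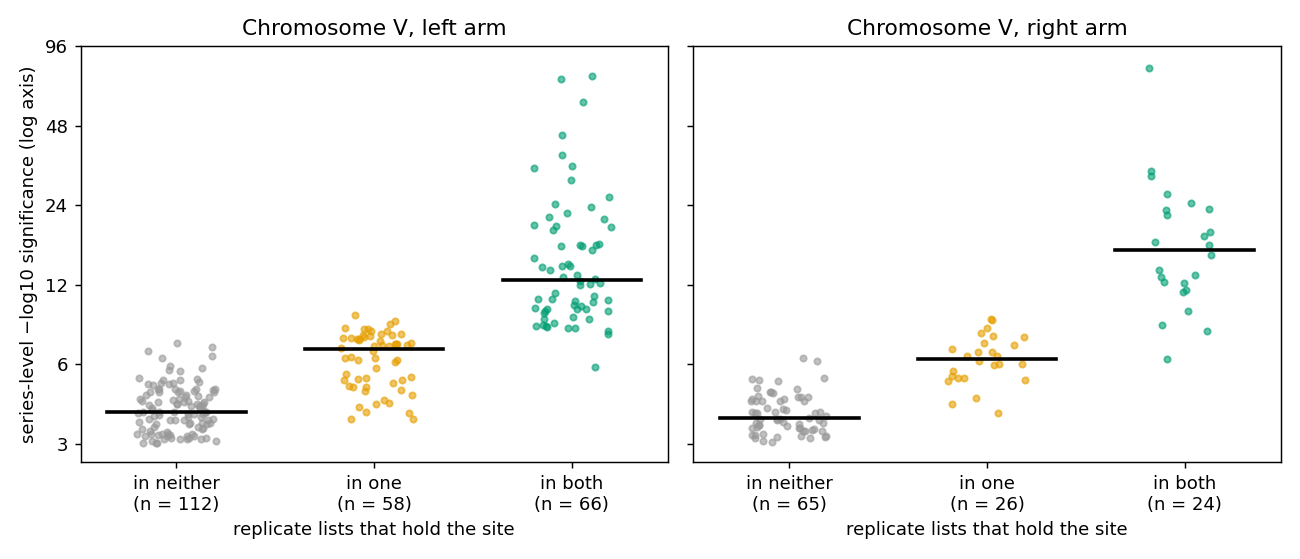
Series-level −log10 significance (log axis) of each arm site by how many replicate lists hold it, with points for sites and lines for medians. Sites held by both lists have medians of 12.5 and 16.2, and nearly all lie above those held by neither.

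Over all arm sites, the series-level strength was a little lower than elsewhere. The median −log10 significance was 5.25 on the left arm, 4.69 on the right arm and 5.51 in the centre of V, and 5.93 over all sites. The last value includes I (6.62) and IV (6.17), whose series-level values are on a higher scale. On II, III and X the medians were 5.76, 6.02 and 5.59. In the replicate lists the right arm had the higher median instead: 5.60 in replicate 1 and 5.01 in replicate 2, against 4.80 and 4.76 in the centre. The left arm had 4.80 and 4.96. The medians over all sites were 5.09 and 5.11, so the left arm lay below them in both replicates and the right arm in replicate 2 alone. Against the centre of V, neither arm was clearly lower in a replicate list. Among sites found in both replicates, the centre of V had a median of 12.3, below both arms.

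In the series-level list, the median widths of arm sites were close to that of the centre of V. The median was 359 bp on the left arm (6 to 4523 bp), 339 bp on the right arm (2 to 4230 bp) and 375 bp in the centre. Sites of under 100 bp made up 13.0% of the right arm (7.49 to 20.6) and 6.36% of the left arm (3.60 to 10.3). The share was 6.12% in the centre (4.37 to 8.30), below the interval of the right arm, and 7.90% over the whole list. These differences were not tested. None of the 35 right-arm sites of replicate 1 was that narrow, where the exact interval allows a share of up to 10.0%. Wider sites had higher −log10 significance, with a Spearman's rho of 0.56 across the 236 left-arm sites and 0.62 across the 115 right-arm sites.

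The strongest sites of the left arm were held by both replicates with like values. The site at 1150940 to 1152103, 1164 bp wide, had a −log10 significance of 73.9 in the series-level list (rank 41), 39.5 in replicate 1 and 41.6 in replicate 2. The site at 5049263 to 5050117, 855 bp wide, had 72.2 (rank 45), 40.5 and 34.1. The values of the replicates lay close together in both sites. The site at 723825 to 728347 had 58.7 (rank 71) and was the widest of the arm at 4523 bp. It had 29.3 and a like width of 4451 bp in replicate 1, and in replicate 2 it was split into 2 pieces, the stronger with 14.0. It was the left-arm site whose strength differed most between the replicates among these 3.

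Lower down, 5843285 to 5845071 (1787 bp, the third widest) had 44.0 in the series-level list, 21.9 in replicate 1 and 18.5 in replicate 2. The site at 2672221 to 2673014 had 37.0, 20.3 and 22.3. Its neighbourhood is sparse, with the nearest series-level site 24.8 kb away. The site at 3196983 to 3197355 had 33.8, 17.3 and 16.6 and was only 373 bp wide. It ends the 393-kb stretch without a site in either replicate. The remaining members of the 10 strongest were 5790494 to 5791284, 731234 to 731809, 4326820 to 4327244 and 2133369 to 2134794, with series-level values between 33.2 and 24.3. All 10 were found in both replicates, and 6 had the higher value in replicate 1. The second widest site, at 5840580 to 5843071 (2492 bp), was weak, with 7.37 in the series-level list and 5.15 in replicate 1, and was not in replicate 2.

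On the right arm 1 site stood far above the rest. The site at 20772013 to 20776242, 4230 bp wide and 123 kb from the last site end of the chromosome, had a −log10 significance of 79.2 (rank 33), the highest of both arms. It was split into 3 pieces in replicate 1 and 2 pieces in replicate 2, and the strongest pieces had 28.5 and 29.9. The next site, at 19528918 to 19529598 (681 bp), had 32.2 (rank 300), 14.8 and 18.4. No right-arm site therefore lay between −log10 significance 32.2 and 79.2.

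The site at 16592022 to 16594878, 43.5 kb inside the boundary and 2857 bp wide, had 30.9 in the series-level list. It was split into 2 pieces in each replicate. The piece nearer the boundary had 8.11 in replicate 1 and 6.93 in replicate 2, and the other had 3.15 and 7.15. The replicates thus differed in which piece was the stronger. The site at 17951006 to 17951801 had 26.5, with 16.9 in replicate 1 and 9.22 in replicate 2. The site at 20398201 to 20398612 had 24.5, 11.3 and 12.3. The other members of the 10 strongest, at 18581717 to 18582213, 18967598 to 18967972, 17857340 to 17858346, 17728625 to 17729176 and 20706889 to 20708779, had series-level values between 23.2 and 18.3. The last was the third widest of the arm at 1891 bp. All 10 were found in both replicates, 5 of them with the higher value in replicate 1 when the strongest piece of a split site was taken. The 2 arms held 3 and 1 of the 100 strongest sites of the whole series-level list, and the centre of V held 6. These counts were near their shares of all sites of the list, 3.47%, 1.69% and 9.13%. The ranking includes I and IV, whose series-level values are on a higher scale.

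The strongest replicate sites without a partner in the other replicate were weaker by far. In replicate 1 they were 5016723 to 5017052 on the left arm (6.76) and 20419614 to 20420573 on the right arm (3.88). In replicate 2 they were 979683 to 980075 (6.01) and 20413227 to 20413849 (5.81). The series-level list held all 4 of them, at 8.73, 5.21, 5.34 and 8.79.

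Sites came in groups in places. With neighbours under 2 kb apart joined, the left arm had 31 groups that held 75 of its 236 sites (31.8%), and the right arm had 12 groups with 27 of its 115 (23.5%). The group at 5838719 to 5848844, beside the left boundary, had 5 sites in 10.1 kb, 3 of them found in both replicates, and includes the 1787-bp and 2492-bp sites. The group at 723825 to 731809 had 4 sites in 7.99 kb, 3 found in both, and includes 2 of the 10 strongest sites of the arm. The group at 4689331 to 4695118 had 5 sites in 5.79 kb and only 1 found in both. The largest groups of the right arm had 3 sites each. The centre was not grouped in this way. Its neighbouring series-level sites were under 1 kb apart in 14.7% of gaps, against 11.1% on the left arm and 8.77% on the right arm, so close neighbours were not particular to the arms.

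In windows of 100 kb, the fullest of the left arm was 3800001 to 3900000 with 13 series-level sites, 6 of replicate 1 and 3 of replicate 2. On the right arm 19500001 to 19600000 and 20400001 to 20500000 had 10 series-level sites each. In the replicates the fullest right-arm window was another one, 20700001 to 20800000 near the end of the chromosome, which holds the strongest site of the arm. It had 9 series-level sites and held 8 of the 35 right-arm sites of replicate 1 (22.9%), 6 of the 46 of replicate 2 (13.0%) and 5 of the 24 found in both. The replicate counts include pieces of split sites. The strongest site gave 3 of those in replicate 1 and 2 of those in replicate 2, and the site at 20706889 gave 2 in replicate 1. Without this window the right arm had 24.9, 6.35 and 9.41 sites per Mb. Windows with no site at all made up 14.3% of the right arm, 5.17% of the left arm and 4.72% of the centre in the series-level list. For sites found in both replicates these were 61.9%, 39.7% and 24.5%.

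Across sites that overlapped one to one, the replicates ranked left-arm sites as they ranked sites elsewhere. Their −log10 values gave a Spearman's rho of 0.79 over 65 left-arm pairs (Pearson's r 0.94) and 0.79 over 1687 pairs on other chromosomes. Over 24 right-arm pairs it was 0.63 (Pearson's r 0.67). The right-arm value rests on few pairs, and each pair comes from the same 2 libraries. It leaves out the strongest site of that arm, whose pieces had no such match, and counts the 2 pieces of the site at 16592022 as 2 pairs. Replicate 2 had the higher value in 35 of 65 left-arm and 13 of 24 right-arm pairs. In the 64 left-arm and 21 right-arm sites for which it was computed, the series-level −log10 value divided by the sum of the 2 replicate values had a median of 1.04 on the left arm and 1.07 on the right arm, compared with 1.40 on I and 1.39 on IV, so series-level strengths are set side by side between the arms and those chromosomes only with that difference in scale.

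**Figure D5:**
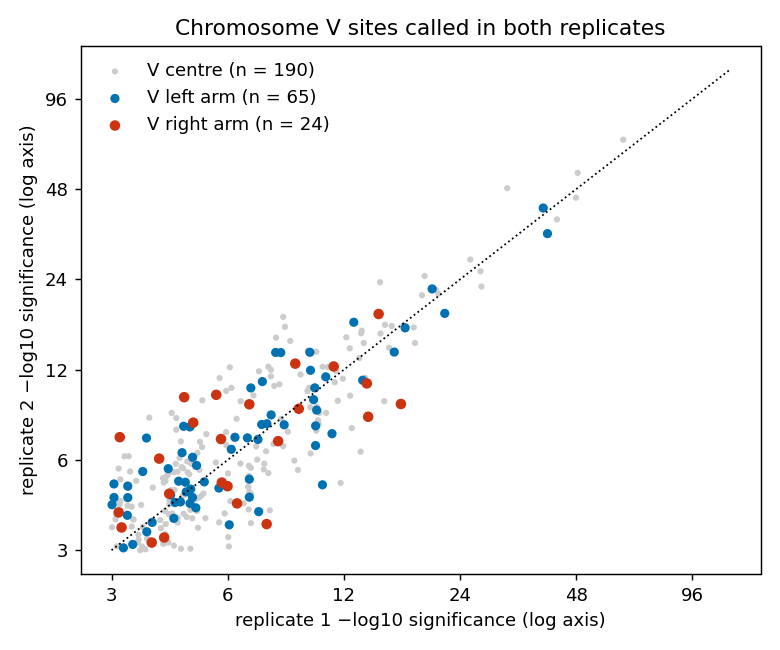
Replicate 2 against replicate 1 −log10 significance (both axes log) of V sites that overlap one to one, with the left arm in blue (65 pairs), the right arm in red (24) and the centre in grey (190); the dotted line marks equal values. The arm pairs lie along the line, with rho of 0.79 on the left and 0.63 on the right.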

How the data were processed

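The authors deposited 3 site lists, 1 per ChIP replicate and 1 for the series. Coordinates are in WS220, per the file headers, and the source column names PeakSeq, which scores ChIP reads against a control. Not given in the sources used here are its settings, the aligner and how the replicates were combined. Column 6, deposited by the authors without a name, is taken for a p-value or a q-value, since its entries are positive and stay below 0.001, and its −log10 was used for ranking.

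Members and named sites were chosen with earlier results of these data known. Site counts per Mb were compared by exact conditional binomial tests (scipy 1.17.1, Python 3.11.15), adjusted by Benjamini-Hochberg over 18 tests, 6 per list. Shares have Clopper-Pearson and densities exact Poisson 95% intervals. A chromosome's span ran to its last site in any list. The alternatives were the replicate lists, sites in both replicates, the upper 50% by significance, sites of at least 100 bp, sites under 500 bp apart merged, arms and outer parts cut at 33.3% of every span, a stricter match between lists (overlap of 50% of each site, or midpoints within 100 bp), quasi-Poisson fits in 100-kb windows (statsmodels 0.14.6) and leaving out I and IV. The density tests were checked on simulated sites placed evenly and independently. That check could not show how clustering of sites affects their intervals and p-values. Sites are named by 1 rule: in each arm the 10 strongest, the 3 widest, those nearest the boundary, the strongest without a replicate partner, the fullest window and the 3 longest empty stretches. Groups of neighbouring sites and stretches of the profile were chosen after their values were seen. No sequence is printed, because no WS220 genome was used here.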

Additional observations from a re-analysis of the deposited data

How the results depend on the processing

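No paired analysis was possible because ChIP and input share replicate numbers but no input list was used here, and the densities come from single lists. Of 66 alternative values of the 6 density ratios, 62 kept their direction and stayed past the threshold. The other 4 belong to the left arm against the left outer parts of the other autosomes. Without I and IV that ratio was 1.11 in the series-level list and, in settings chosen after seeing the data, 1.14 in replicate 1 and 1.10 in replicate 2. The quasi-Poisson fit for replicate 2, also chosen after seeing the data, gave 0.747 with an adjusted p of 0.0530. The ratio of the right arm to the centre ran from 0.306 to 0.462 over its 10 alternatives, and that to the right outer parts from 0.348 to 0.524 over 13.

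The share of left-arm sites found in both replicates was 22.0% with midpoints within 100 bp, and that of right-arm sites was 30.2% in the upper 50% of the list by significance. Median −log10 significance of the left arm minus the centre was −0.26 in the series-level list. Leaving out a replicate gave −1.59e-05 to 0.19, sites in both replicates gave 0.18 and sites of at least 100 bp gave −0.54. For the right arm it was −0.82, and 0.25 to 0.80 with a replicate left out and 3.90 for sites in both. Median width minus the centre was −16 bp on the left arm and −52.5 to −18.5 bp with a replicate left out, and −36 bp on the right arm and 0.5 to 31 bp. The lists hold no reads, so the depth cannot be set against the density of sites.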
